A study of Mus musculus with 6 samples.

Results

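Genes of the proteasome and of E2 ubiquitin-conjugating enzymes were followed on two-colour arrays of mouse kidney. Members were all spots whose single gene symbol was Psma, Psmb, Psmc or Psmd with a number, a proteasome activator (Psme) or a Ube2 gene. Psmc3ip was left out. The members came to 56 genes on 95 spots, of 9107 genes on 15114 spots that carried 1 gene name. Classes were set by symbol, so the 19S class can hold genes other than subunits, such as Psmd9, an assembly chaperone. Likewise, the E2 class holds every Ube2 gene on the array, whatever its activity. The 20S core had 13 genes on 18 spots, the 19S regulatory particle 17 genes on 27 spots, the activators 2 genes on 6 spots and the E2 enzymes 24 genes on 44 spots.

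The kidneys came from male Swiss albino mice of 8 to 10 weeks, with 4 mice in a group, housed for 24 h after drug administration. Amodiaquine was given at 120 mg/kg. Sulfodoxine at 300 mg/kg was followed by Pyrimethamine at 15 mg/kg (here SP), another group received amodiaquine and SP together at these doses, and the vehicle in every comparison was DMSO. All 3 drugs are antimalarials. Each array compared treated RNA with vehicle RNA, and by the labels each treatment had 2 arrays with the Cy3 and Cy5 dyes exchanged. The labels do not say whether RNA of the 4 mice was pooled, so the spread between arrays may be technical.

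The proteasome degrades proteins that carry ubiquitin chains. An E1 enzyme activates ubiquitin, an E2 enzyme receives it, and an E3 ligase directs its transfer from the E2 to the substrate. The 19S particle binds, unfolds and feeds substrates into the 20S core, a barrel of alpha rings around beta rings that hold the proteolytic sites. In the kidney, as elsewhere, the system turns over damaged, misfolded and short-lived regulatory proteins.

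The 2 promoter windows below belong to the brightest 20S spot, Psma7, and to Ube2s, the brightest E2 gene with an entry in the RefSeq promoter table of GRCm38.p6. Capitals mark a CCAAT box in Psma7 and a TATA box (TATAAA) in Ube2s, searched as these exact letters on both strands. Each window holds the 250 bases before the transcription start, on the gene's own strand. Psma7 lies at chr2:180042465-180042714, minus strand, and Ube2s at chr7:4812341-4812590, minus strand.
Psma7: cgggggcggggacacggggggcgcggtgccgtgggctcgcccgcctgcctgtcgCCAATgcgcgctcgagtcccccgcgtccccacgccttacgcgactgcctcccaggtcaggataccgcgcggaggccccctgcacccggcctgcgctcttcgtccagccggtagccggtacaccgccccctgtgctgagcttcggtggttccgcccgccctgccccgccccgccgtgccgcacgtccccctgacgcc
Ube2s: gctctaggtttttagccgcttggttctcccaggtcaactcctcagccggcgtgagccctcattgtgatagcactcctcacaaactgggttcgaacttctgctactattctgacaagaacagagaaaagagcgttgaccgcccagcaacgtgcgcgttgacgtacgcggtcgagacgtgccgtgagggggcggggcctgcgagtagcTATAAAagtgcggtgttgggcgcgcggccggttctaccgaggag
CCAAT was present in 14 of 54 windows of the 45 member genes in the table (25.9%) and in 33.8% of all 32851 windows. TATAAA was present in 6 member windows (11.1%) and in 12.4% of all windows. TGACNNNGC, the core of the antioxidant response element that NRF1 and NRF2 bind, was present in 5 member windows (9.26%), those of Psmb5, Psmd12, Psmd9, Ube2j1 and Ube2q2, and in 10.2% of all windows. These matches describe letters in the windows, and the arrays do not measure binding.

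Several measured features of the arrays come before the results. The SP and amodiaquine+SP replicate 2 files repeated 28.2% to 41.9% of the foreground values of their replicate 1 files, against 0.0911% and 0.1215% for the amodiaquine pair. They were read as the same scan with another grid placement, which left 4 distinct scans and no settled direction for SP and amodiaquine+SP. A block of spots was taken as in register in a dye when its brightness pattern matched that of the other treatments best with no shift of rows or columns. Both dyes counted as in register where this held for each and the rank correlation between them was at least 0.5. That was so in 20, 25, 35 and 30 of 48 blocks on amodiaquine arrays 1 and 2, the SP scan and the amodiaquine+SP scan. Over the 563 spots that were above background (signal-to-noise ratio of at least 2) and in register in both dyes on both amodiaquine arrays, the log2 ratio of Cy5 over Cy3 correlated between the arrays at r = 0.813 (Pearson, across spots, which are not independent replicates). With loess over the whole array in place of loess within blocks, r was 0.321. The sign of the ratio within blocks was the same on both arrays for 80.3% of these spots, although the labels place amodiaquine RNA in Cy5 on array 1 and in Cy3 on array 2 (65.9% with whole-array loess). Of the fixed cell type markers, spots of 6 of 12 proximal tubule genes had a median brightness rank of 0.886. The 2 thick ascending limb genes on the array were at 0.96 (Umod, uromodulin) and 0.263 (Slc12a1, the sodium-potassium-chloride cotransporter). Median ranks of the other lists were 0.723 (immune), 0.63 (distal tubule and collecting duct), 0.321 (glomerulus and endothelium) and 0.227 (blood, 1 spot).

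Brightness was taken as the rank of a spot's background-corrected intensity among all spots of the same scan and dye, from 0 (dimmest) to 1 (brightest), in blocks where that dye was in register. This gave up to 8 readings a spot, from 4 scans and 2 dyes. Brightness also depends on the probe, so it is not a transcript level and does not order genes by expression. 20S core spots were the brightest class, with a median rank of 0.690 over the 8 readings (0.509 to 0.737), and 16 of 18 spots lay above 0.5. 19S spots had a median of 0.620 (0.391 to 0.773) with 18 of 27 above 0.5. E2 spots had a median of 0.562 (0.485 to 0.607) with 24 of 44 above 0.5, and activator spots 0.480 (0.139 to 0.621) with 2 of 6. All named spots had a median of 0.506 over the 8 readings, and 46.5% of them had a spot median above 0.5. The 20S median was above the E2 median in 7 of 8 readings, above the 19S median in 7 of 8 and above that of all named spots in 8 of 8. The 19S median was above the E2 median in 5 of 8, so these 2 classes did not keep an order. These ranks also cover spots below the background cut (signal-to-noise ratio of at least 2). Psmb3, with a median rank of 0.7155, had a ratio of at most 1.137 in its 8 readings. Of 20S spots, only Psmb10 and Psma7 in block 37 were above background and in register in both dyes on any scan. Of all 95 member spots 80 were not, so class medians largely describe spots that missed these cuts. No test was made, because spots are not replicates and the dyes of a scan share a slide.

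**Figure D1:**
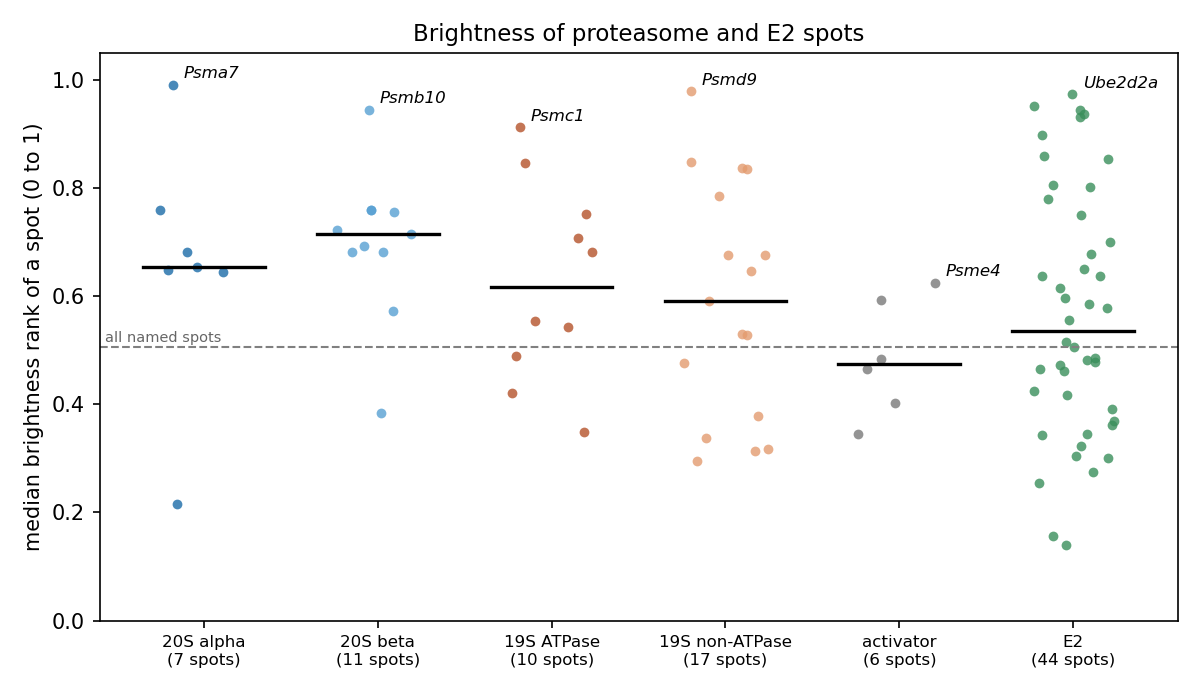
Median brightness rank (0 to 1, vertical axis) of each of the 95 member spots by class, one point a spot. A black bar marks the median of the points of a class. The dashed line is the median of all named spots taken per reading and then over the 8 readings (0.506), another measure than the bars. The bars stand at 0.654 for 20S alpha, 0.716 for 20S beta, 0.618 for 19S ATPase, 0.591 for 19S non-ATPase, 0.474 for activator and 0.536 for E2 spots, and the brightest gene of each class is named.

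Psma7, an alpha-ring subunit of the 20S core, had the brightest member spot, in block 37. Its rank was 0.967 and 0.994 on amodiaquine array 1 (Cy3, then Cy5), 0.998 and 0.986 on array 2, 0.994 and 0.982 on the SP scan, and 0.992 and 0.990 on the amodiaquine+SP scan. It was thus among the brightest spots in all 8 readings, although in Cy3 of amodiaquine array 1 its signal-to-noise ratio was 0.872, under 2. Its other 2 spots had median ranks of 0.648 and 0.216. Psma4, the next alpha gene, had ranks of 0.895, 0.756, 0.866, 0.762, 0.715, 0.610, 0.819 and 0.434 in the same order.

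Among beta subunits the brightest spot was Psmb10, the inducible trypsin-like subunit of the immunoproteasome. Its rank was 0.937 to 0.955 in 5 of its 6 readings and 0.0044 in Cy3 of amodiaquine array 1, where its corrected intensity was 0. The next beta gene, Psmb2, a beta subunit without a proteolytic site, had its brightest spot in a block with a single reading, 0.760 in Cy5 of the SP scan. Psmb7, the constitutive counterpart that Psmb10 replaces, all but equalled it with a median of 0.760, and had ranks of 0.676 and 0.752 on amodiaquine array 1, 0.926 and 0.768 on array 2, 0.853 and 0.787 on the SP scan, and 0.616 and 0.720 on the amodiaquine+SP scan. Psmb8, another immunoproteasome subunit, and Psmb5, the constitutive chymotrypsin-like subunit, were on the array without a spot above background and in register in both dyes. The beta subunit of the thymus, Psmb11, was named after its values were seen. Its single spot had a median rank of 0.384, below that of all named spots.

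In the 19S base, which holds the ATPases that unfold substrates, Psmc1 was brightest. Its spot in block 14 had ranks of 0.879 and 0.913 on amodiaquine array 1, 0.849 in Cy5 of array 2, 0.957 and 0.867 on the SP scan, and 0.964 and 0.969 on the amodiaquine+SP scan. A second Psmc1 spot had a median of 0.847 and ran from 0.440 in Cy3 of amodiaquine array 2 to 0.905 in Cy5 of the amodiaquine+SP scan. Psmc5, the next ATPase gene, ran from 0.0737 to 0.847 over 7 readings on its brightest spot.

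Of the 19S non-ATPase genes, Psmd9, an assembly chaperone of the base, had ranks of 0.975 and 0.982 on amodiaquine array 1, 0.979 and 0.983 on array 2, 0.979 and 0.985 on the SP scan, and 0.973 in Cy3 of the amodiaquine+SP scan. These 7 readings spanned the narrowest range of any spot described here. Psmd11, a lid subunit, had ranks of 0.653, 0.877, 0.874, 0.893, 0.842, 0.810, 0.827 and 0.854 in the order of scans and dyes given for Psma7. Its second spot had a median of 0.785.

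The activators open the 20S gate without the 19S particle. The brightest spot of Psme4, which encodes PA200, had ranks of 0.621, 0.630, 0.777, 0.139, 0.852, 0.512, 0.860 and 0.354. Psme1, a subunit of the 11S activator, had only 2 readings, 0.310 and 0.494 on the SP scan. Readings of the Psme4 spot thus lay on both sides of the middle rank, and those of Psme1 lay below it.

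Ube2d2a, an E2 of the UBCH5 family that works with many E3 ligases, had 6 spots with median ranks of 0.973, 0.953, 0.931, 0.899, 0.751 and 0.679. All 6 were above the median of all named spots, and 4 of them were above background and in register in both dyes on at least 1 scan. The brightest, in block 37, had ranks of 0.571 and 0.975 on amodiaquine array 1, 0.990 and 0.927 on array 2, 0.983 and 0.958 on the SP scan, and 0.974 and 0.973 on the amodiaquine+SP scan. Its corrected intensity was 193 in Cy3 of amodiaquine array 1 and 5732 to 14730 in the other 7 readings. Ube2w, which adds ubiquitin to protein N-termini, had ranks of 0.962, 0.662, 0.948, 0.947, 0.943 and 0.820 in its 6 readings, with the 0.662 in Cy3 of amodiaquine array 2. Ube2s, which extends ubiquitin chains for the anaphase-promoting complex, had a spot at a median of 0.937 and another at 0.465. Ube2k, Ube2j1, an E2 of the endoplasmic reticulum, and Ube2b, an E2 of the RAD6 family, had median ranks of 0.860, 0.854 and 0.781 on their brightest spots. Ube2d3, a close relative of Ube2d2a, and Ube2n, the E2 for lysine-63 chains, had no spot above background and in register in both dyes.

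Spots that carry the same gene name often differed in brightness. Of 23 member genes with several spots, 8 spanned more than 0.3 in median rank, and the median span was 0.194. Psma7 spanned 0.775. Between the first 2 spots of an accession, Spearman's rho was 0.234 over 21 member accessions and 0.0486 over 3238 accessions of the whole array, as a description across accessions. Names were placed by reordering blocks. Over all blocks, in register or not, 150 ribosomal protein spots had a mean rank of 0.797 under that order, against 0.557 by spot number. Every value of a gene here is therefore that of a named spot.

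**Figure D2:**
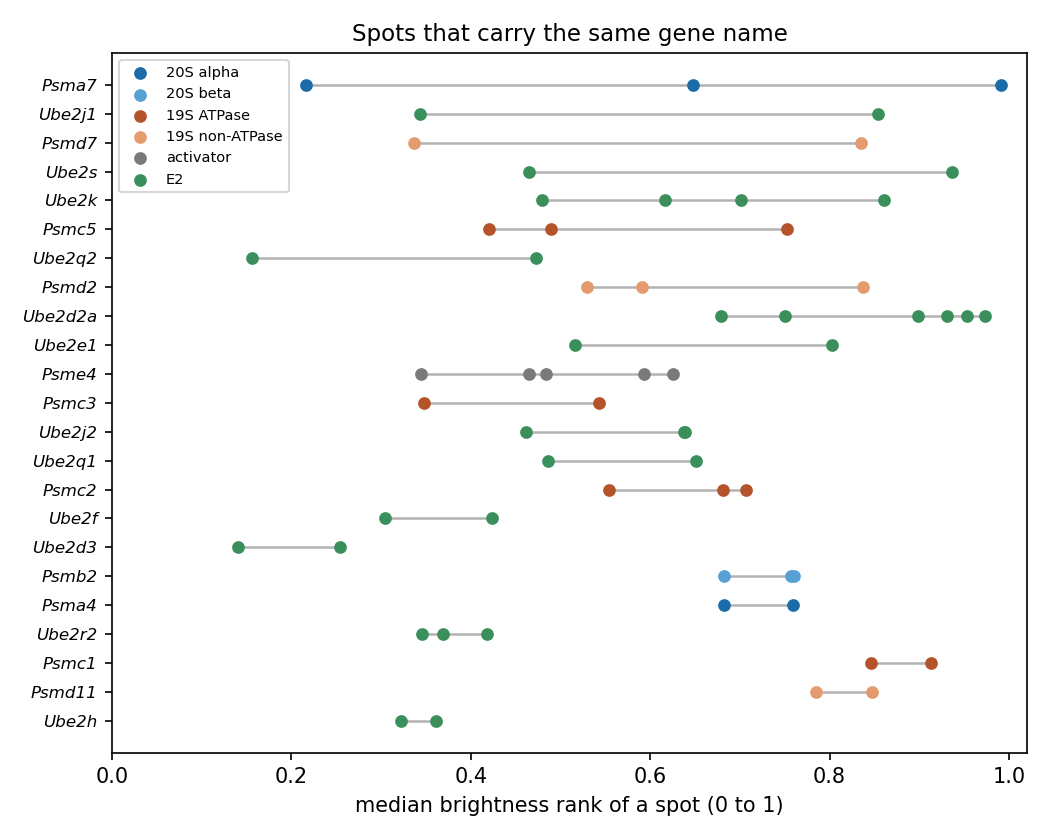
Median brightness rank (0 to 1, horizontal axis) of each spot of the 23 member genes with several spots, one point a spot, coloured by class, with a grey line from the lowest to the highest spot of a gene. Genes are ordered by span, from Psma7 (0.775) at the top to Ube2h (0.0389) at the bottom, and the 6 Ube2d2a spots all lie above 0.67.

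Few spots, members or others, allowed a ratio with both dyes above background and in register. They were 5 on amodiaquine array 1, 9 on array 2, 7 on the SP scan and 5 on the amodiaquine+SP scan. In all, 15 member spots of 11 genes passed on at least 1 scan and 80 on none, and 2577 of all spots passed on at least 1. The 11 genes were Psma7, Psmb10, Psmc1, Psmd9, Psmd11, Ube2b, Ube2d2a, Ube2j1, Ube2k, Ube2s and Ube2w. All 5 spots of amodiaquine array 1 passed in Cy3 over a recorded background of 0. Without counting such spots, Ube2j1 and Ube2k dropped out and 13 spots of 9 genes remained.

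For amodiaquine against vehicle, the member spots were spread on both sides of 0. Ratios were turned so that amodiaquine stood over vehicle by the labels and were fitted with limma on 3638 probes above background in at least 1 dye on both arrays. At a Benjamini-Hochberg adjusted p of 0.05 limma called 0 probes (0%), and 94 (2.58%) had an unadjusted p under 0.05. Of 18 member spots tested, from 15 genes, 0 were called and 2, of Psmd13 and Ube2d2a, had an unadjusted p under 0.05. The members' median log2 ratio was -0.0030, with 9 above and 9 below 0, and that of all tested probes was 0.03. Only 6 of the 18 had the same sign on both arrays, against 35.2% of all tested probes. The median SE of a member was 0.576 on the log2 scale. With 2 arrays and 1 residual degree of freedom the fit had almost no power at this spread, even for large changes, so the count of 0 does not show that members were unchanged.

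Members beyond 1.5-fold in 1 direction on both arrays were 1 higher spot (all tested probes 3.35%) and 2 lower spots (3.68%). These counts rest on the labelled dyes. As Cy5 over Cy3, with ratios not turned, Ube2s passed in Cy5, at 1.62 and 0.88 (all tested probes 8.16%). In Cy3 0 members passed (10.4%), and the other 3 spots did not pass. The Ube2s value of 1.62 rests on a Cy3 intensity of 0 on array 1, where that dye was out of register. With whole-array loess, not turned, Ube2s was at 0.42 on array 2 and did not pass. Turned, with whole-array loess, 2 were higher (Psma7 and Ube2d2a in block 37, all tested probes 5.2%) and 3 lower (Ube2w, Psmd13 and Psmd7, 14.7%). The lower spots were Psmd13, a lid subunit, at -3.40 and -3.76, and Psmd7, the lid partner of the deubiquitinase Psmd14, at -4.53 and -0.89. The fitted log2 ratio was -3.58 ± 0.54 (SE, 2 arrays, limma, adjusted p = 0.9999) for Psmd13 and -2.71 ± 1.09 (adjusted p = 0.9999) for Psmd7. Neither block was in register in both dyes on both arrays. The corrected intensity of Psmd13 was 4532 in Cy3 and 0 in Cy5 on array 1, and 552 in Cy3 and 14010 in Cy5 on array 2. The bright dye was each time the one out of register. For Psmd7 the Cy3 reading of 7207 on array 1 was out of register, and the Cy3 intensity was 617 on array 2. Another Psmd7 spot, in block 23, had a median rank of 0.337. It was not above background in either dye on either array, so it was not tested. Read as Cy5 over Cy3, that spot was at 0.01 and 0.11.

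The higher spot was Ube2d2a in block 37, at 1.38 and 1.80, with a fitted value of 1.59 ± 0.54 (SE, 2 arrays, limma, adjusted p = 0.9999). On array 1 each dye of its block was in register alone, but the rank correlation between the dyes was under 0.5. The array 1 value rests on the Cy3 reading of 193 described above. Psma7 in the same block was at -0.0087 and 1.13, and at 1.49 and 1.80 with whole-array loess. Other Ube2d2a spots were at 0.06 and 0.50, at 0.50 and -0.39, and at 0.04 and -0.45, so their arrays differed in sign or lay nearer to 0 than those of block 37. Psmb10 was at 2.20 and 0.0015, where array 1 had the Cy3 intensity of 0. With whole-array loess Psmb10 was at 2.99 and -2.76, so its array 2 value depended on the loess. Its Cy3 intensity on array 2 was 151, and that dye was out of register. Not turned, with whole-array loess, 1 member (Psmb10) passed 1.5-fold in Cy5 on both arrays (all tested probes 14.2%). In Cy3 1 member passed (Psmb1, 9.35%).

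**Figure D3:**
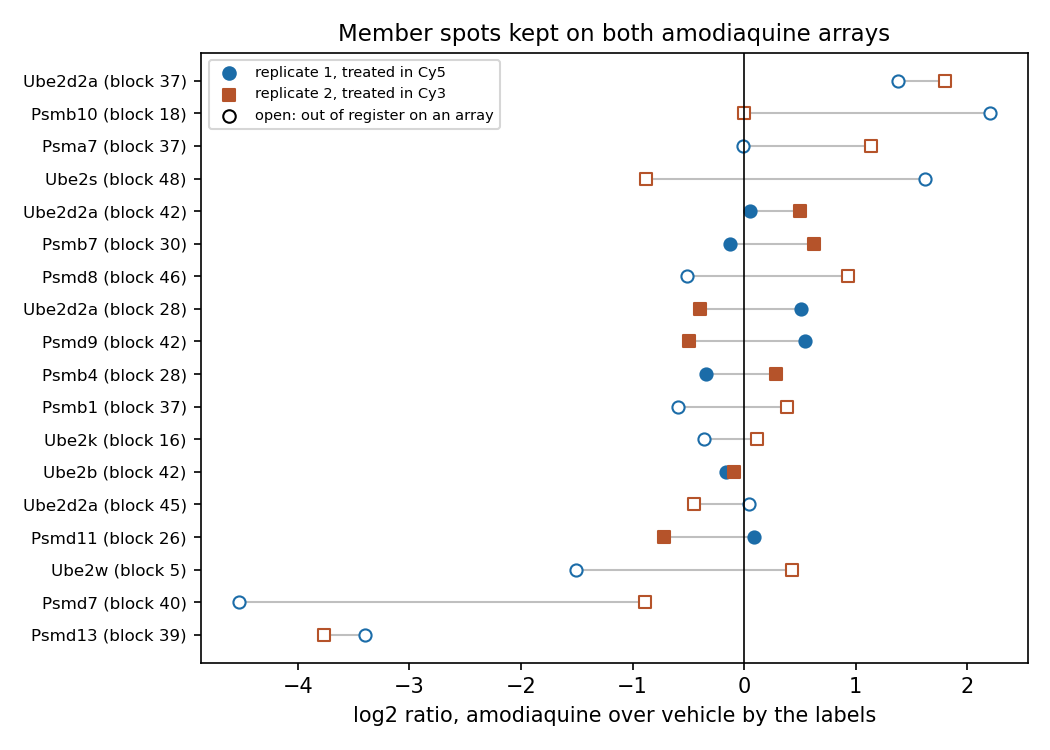
Log2 ratio of amodiaquine over vehicle by the labels (horizontal axis) of the 18 member spots tested, with a circle for array 1 and a square for array 2 joined by a line. Filled symbols mark the 7 spots in register in both dyes on both arrays, which lie between -0.71 and 0.62, and open symbols mark the other 11.

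Only 3 member spots were above background and in register in both dyes on both amodiaquine arrays. Read as Cy5 over Cy3, Psmd9 had log2 ratios of 0.54 on array 1 and 0.50 on array 2. With whole-array loess Psmd9 was at 0.03 and 0.39. Ube2d2a in block 28 had 0.50 and 0.39 within blocks, and Ube2d2a in block 42 had 0.06 and -0.50. Their Cy3 background on array 1 was 0, and 0 members were left among the 386 spots with a background above 0 there. Psmd9 and the block 28 spot thus kept the sign of Cy5 over Cy3 between arrays labelled with exchanged dyes. Turned by the labels, 0 of these 3 spots and 0 of all 563 such spots passed 1.5-fold on both arrays in 1 direction. As Cy5 over Cy3, 0 of 3 members were, and of all 563 spots 48 were brighter in Cy5 and 110 in Cy3.

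The SP and amodiaquine+SP scans gave 1 ratio a spot, so they were described without a test and as Cy5 over Cy3. On the SP scan Psma7 was at -0.55, Psmb10 at -0.0090 and Psmd9 at 0.28, a proteasome median of -0.0090. The E2 spots were Ube2d2a at -0.62 (block 37) and 0.46 (block 28), Ube2s at 0.42 and Ube2w at -0.20, a median of 0.11. All 1633 spots of this kind had a median of 0.07. Beyond 1.5-fold, 0 members were brighter in Cy5 (all spots 5.33%) and 1, Ube2d2a in block 37, in Cy3 (15.3%).

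On the amodiaquine+SP scan Psma7 was at -1.08 and the Psmc1 spots at 0.0011 and 0.06, a proteasome median of 0.0011. Ube2d2a in block 37 was at -0.19 and Ube2s at 1.11. All 1435 spots had a median of 0.03. One member, Ube2s, was brighter in Cy5 beyond 1.5-fold (all spots 7.53%) and 1, Psma7, in Cy3 (10.7%).

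Of 6 spots measured in both dyes on more than 1 scan, 5 kept the sign of Cy5 over Cy3, as did 72.2% of all 1588 such spots. With whole-array loess 4 of 6 did, and 64.4% of all. Psma7 was at -1.13 on amodiaquine array 2, -0.55 on the SP scan and -1.08 on the amodiaquine+SP scan. Ube2s was at 0.88, 0.42 and 1.11 on these scans. Psmd9 was at 0.54, 0.50 and 0.28 on amodiaquine arrays 1 and 2 and the SP scan, and Ube2d2a in block 28 at 0.50, 0.39 and 0.46. Ube2d2a in block 37 was at -1.80, -0.62 and -0.19 on the scans given for Psma7, and with whole-array loess at -2.23, -1.04 and 0.06. The exception was Ube2d2a in block 42, which changed sign between the amodiaquine arrays. The scans share the vehicle, and the part of dye, spot and treatment in these ratios was not tested.

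**Figure D4:**
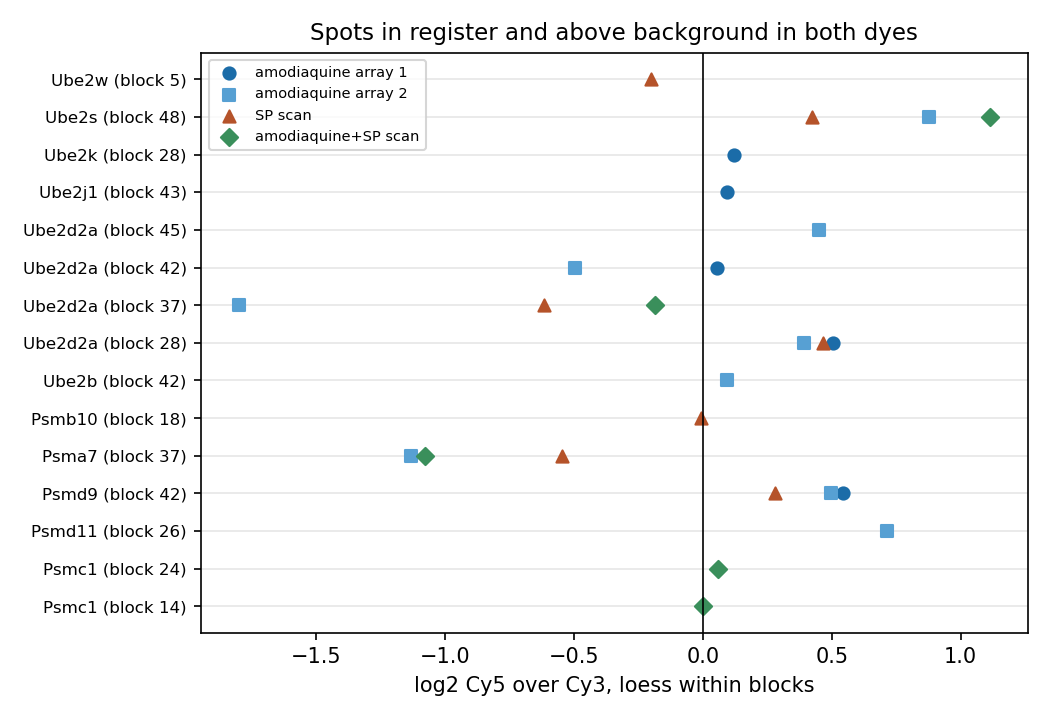
Log2 ratio of Cy5 over Cy3 after loess within blocks (horizontal axis) of the 15 member spots above background and in register in both dyes on at least 1 of 4 scans, with one symbol a scan. Psma7 lies below 0 on all 3 scans that measured it (-1.13 to -0.55) and Ube2s above 0 (0.42 to 1.11).

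Other genes of the pathway were described from lists fixed with the members. The list of ubiquitin and E1 genes also covered E1 enzymes of ubiquitin-like proteins, such as Nae1 and Uba3. Of its 12 genes, 3 were on the array (Nae1, Uba3 and Uba6) with a median rank of 0.455, and none encodes ubiquitin. Assembly and associated factors had 18 of 21 genes and a median of 0.533. Their brightest gene was Sem1, the small lid subunit, at 0.98. Of 3 regulators only Nfe2l1, which encodes the transcription factor NRF1 of proteasome genes, was on the array, with a median of 0.759 over 3 spots. Cullin-RING ligase parts had 9 of 12 genes and a median of 0.454. The limma fit tested 1, 3, 2 and 3 spots of these lists, and 0 passed the test in either direction or had an unadjusted p under 0.05.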

How the data were processed

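Kidney RNA was labelled with Cy3 and Cy5, and arrays were scanned with ImageQuant version 5.0 and measured in ArrayVision version 8.0, per the labels and the series' design text. The deposited files give foreground, background and corrected intensity per spot and dye, and a signal-to-noise ratio, with no normalization by the authors. The authors also deposited log2 ratios, LOWESS-normalized in Avadis version 4 per the design text, which served as an alternative. Set against Cy5 over Cy3 of the scanner files, they had slopes of -1.08 to 1.76, with the sign turned on replicate 2 files. Their centring is unknown, and their medians per file ran from -0.0684 to 0.1145.

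The 48 blocks of the probe table were reordered to the scanner's blocks, 23040 spots in all. Intensities were corrected with normexp (offset 50) and normalized by loess within blocks in limma 3.58.1 under R 4.3.3. Spots with a missing Cy5 background (58, SP replicate 1) got no ratio from that scan. On amodiaquine replicate 1 the Cy3 background was 0 at 7079 spots, so their signal-to-noise ratio has no bound. Register was judged on foreground ranks over shifts of up to 3 rows or columns, with a rank correlation between dyes of at least 0.5 where both dyes were needed. The amodiaquine fit used lmFit and eBayes on 2 arrays (1 residual degree of freedom), two-sided, with Benjamini-Hochberg adjustment, and was tested on simulated data, where it returned the changes put in but called none of them at the spread of these arrays. Values are given for genes whose brightest spot was above background and in register in both dyes on at least 1 scan, for the 2 brightest genes of a class, for members beyond 1.5-fold and, added after values were seen, for Psmb7, Psmb11 and the second spots of named genes. Members, lists and rules were chosen with earlier results of these data known. Alternatives covered naming, background, normalization, filters, register, direction and left-out scans. The number of arrays limits the precision.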

Additional observations from a re-analysis of the deposited data

How the results depend on the processing

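Brightness medians of the 20S, 19S and E2 spots moved beyond the spread between scans only with names by spot number, to 0.621, 0.470 and 0.456. Without each scan in turn they ran from 0.657 to 0.721 (20S), 0.583 to 0.627 (19S) and 0.548 to 0.568 (E2). Amodiaquine calls by limma were 0 under each alternative except loess over the whole array, with 2, neither a member. The members' median amodiaquine ratio moved to -0.156 with background subtracted and 0.631 with the authors' values (all probes 0.146). It was -0.216 with ratios not turned, an alternative chosen after seeing the data (as were the other direction and scaling beside the fold and sign counts of the report), and -0.0676 to 0.0594 with 1 array left out, where no test is possible. On the SP scan the proteasome median moved to 0.0479 with whole-array loess and 0.0380 with background subtracted, and the E2 median to -0.202 at a signal-to-noise ratio of at least 3. On the amodiaquine+SP scan the proteasome median moved to 0.244 with background subtracted and -0.538 at a ratio of at least 3, on 3 and 2 spots. Causes were not tested. The second files of these scans gave no value, since no member spot passed there. Each array compares both groups directly, so the ratios are already paired within an array, and no other paired analysis was made.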
